A study of Homo sapiens with 3 samples.

Results

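The Slit, Robo and DCC genes are 6 axon guidance genes (SLIT1, SLIT2, SLIT3, ROBO1, ROBO2 and DCC), taken here from 13356 gene IDs by their Ensembl IDs in the names of RNA peaks bound by CSTF2tau. Of the 6 genes, 4 had at least 1 listed peak in any replicate, and SLIT3, ROBO1 and ROBO2 had peaks in all 3 replicates. The genes were chosen with earlier results of these data known, and SLIT3 was chosen by its count of reads near the 3' end, so levels and positions below describe that choice. CSTF2tau, a paralogue of CSTF2, binds RNA within the cleavage stimulation factor, a complex that takes part in forming the 3' ends of mRNAs. It was precipitated with the anti-CSTF2tau antibody A301-486A from wild-type BE(2)-C cells, which are a human neuroblastoma line. By sCLIP, RNA was crosslinked to protein with ultraviolet light in living cells, partly digested, recovered with the antibody and sequenced. All 3 samples are biological replicates of this 1 group, untreated, and a library without the antibody was not used here, so nothing sets a background for binding.

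Slit proteins are secreted ligands, and Robo proteins are the receptors on growing axons that bind them. Slit binding to Robo repels axons, which keeps them from crossing the midline of the nervous system at the wrong place. DCC is the receptor for netrin, an attractant, and Robo signalling can silence that attraction. SLIT2 and SLIT3 are also host genes: an intron of each holds a hairpin for miR-218, a microRNA known to repress ROBO1 in human cells. Most of the length of these genes lies in introns.

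RefSeq (GRCh38.p14) places MIR218-2 and MIR585 inside SLIT3 on the same strand, and MIR218-1 inside SLIT2. Their mature sequences are shown because they are the small RNAs made from the transcript that held most reads of these genes. The seed, bases 2 to 8, is in capitals.
hsa-miR-218-5p: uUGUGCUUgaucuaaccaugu
hsa-miR-218-2-3p: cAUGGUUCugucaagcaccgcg
hsa-miR-585-5p: cUAGCACAcagauacgcccaga
hsa-miR-585-3p: uGGGCGUAucuguaugcua
The mature miR-218-5p of the SLIT2 and SLIT3 hairpins has the same sequence, and the other 3 have seeds of their own. The peaks are given in hg19, and positions were not converted between builds. Whether any peak covers a hairpin was therefore not tested.

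The 3 libraries had 105203, 18346 and 78761 peaks with 736059, 108434 and 387784 reads. A read here is the last number of a peak name, which no source explains, and only reads inside listed peaks are counted. Replicate 2 is the smallest library, and replicate 3 has 63.2% of its nuclear reads on the minus strand, against 48.8% and 50.6% in replicates 1 and 2. SLIT3, ROBO1 and SLIT1 lie on the minus strand and ROBO2 on the plus strand. Marker genes of the cell line could not be checked, because no symbols are given for the gene IDs.

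Among the ligands, SLIT3 carried nearly all of the signal. SLIT3 (ENSG00000184347) had 2709 reads in 301 peaks in replicate 1, 342 reads in 54 peaks in replicate 2 and 996 reads in 159 peaks in replicate 3. Its share of the listed reads was 0.368%, 0.315% and 0.257%, a mean of 0.313% ± 0.0556 (SD, n = 3). This is rank 17 of 13356 gene IDs by mean share. All 3 replicates lay close together: the highest share was 1.43 times the lowest, against a median of 2.64 times over 355 gene IDs with at least 500 reads and reads in all 3 replicates. Only 9.86% of those gene IDs had a smaller spread than SLIT3. SLIT3 had 4047 reads over the 3 replicates, and the comparison was not matched for reads, so the part of depth in this spread was not tested.

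The other Slit genes were at or near the limit of the lists. SLIT1 (ENSG00000187122) had a single peak of 3 reads, in replicate 3, at chr10:98805348-98805407, and that peak was also listed under ENSG00000269891. SLIT2 and DCC had no listed peak in any replicate. Peaks under 3 reads were never listed, so an empty gene ID does not show that its RNA was absent, and a low level of RNA cannot be told apart from a lack of binding.

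The receptors carried less signal than SLIT3 and varied more between replicates. ROBO1 (ENSG00000169855) had 766, 38 and 707 reads in 120, 11 and 165 peaks in replicates 1, 2 and 3. Its share was 0.104%, 0.0350% and 0.182%, a mean of 0.107% ± 0.0737 (SD, n = 3), rank 96 by mean share. Replicate 3 was highest and replicate 2 lowest, a spread of 5.20 times, and 80.3% of the 355 gene IDs had a smaller spread. ROBO2 (ENSG00000185008) had 614, 26 and 237 reads in 102, 8 and 57 peaks, with shares of 0.0834%, 0.0240% and 0.0611%. Its mean was 0.0562% ± 0.0300 (SD, n = 3), rank 247, with replicate 1 highest. ROBO1 and ROBO2 overlapped in their range of shares, and SLIT3 overlapped neither.

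**Figure D1:**
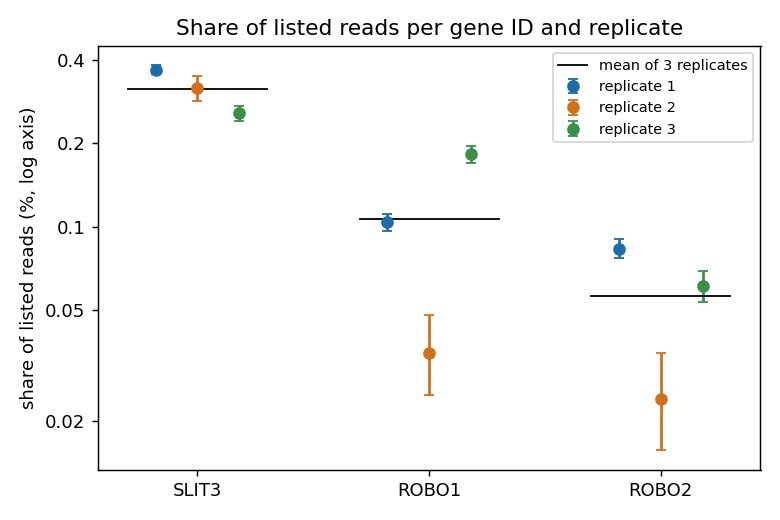
Share of all listed reads per replicate (vertical axis, %, logarithmic) for SLIT3, ROBO1 and ROBO2. Points are replicates with exact 95% intervals for counting error, and black lines are means of 3 replicates; SLIT3 lies between 0.257% and 0.368%, above every ROBO1 and ROBO2 point.

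Replicate 3, with the most minus-strand reads, had the highest ROBO1 share and the lowest SLIT3 share, both genes of the minus strand. As a share of the nuclear reads on its own strand, ROBO1 had 0.214%, 0.0712% and 0.291% in replicates 1, 2 and 3. ROBO2 had 0.164%, 0.0498% and 0.168% on the plus strand, so replicates 1 and 3 were nearly level there. SLIT3 had 0.757%, 0.641% and 0.410% on the minus strand. The order of replicates for ROBO1 and SLIT3 was the same on either scale, and the part of the strand excess in these shares was not tested.

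The genes differ in length, so their levels are set against each other per kb of listed span, the distance from the first to the last peak over all replicates. The span was 635 kb for SLIT3 (chr5:168089464-168724168), 1170 kb for ROBO1 (chr3:78646608-79816924) and 1222 kb for ROBO2 (chr3:76419846-77642338). SLIT3 had 5.80, 4.97 and 4.05 reads per kb per 1000000 listed reads in replicates 1, 2 and 3, ROBO1 had 0.889, 0.299 and 1.56, and ROBO2 had 0.682, 0.196 and 0.4999. The level per kb of SLIT3 was 6.52, 16.6 and 2.60 times that of ROBO1 in the 3 replicates, and 8.50, 25.3 and 8.09 times that of ROBO2. ROBO1 was above ROBO2 per kb in each replicate, by 1.30, 1.53 and 3.12 times, a mean difference of 0.88 ± 0.67 on the log2 scale (SD, n = 3). That order rested on 2 ROBO2 loci with 9 reads, all of replicate 1, which lie far 5' of the others and lengthen the span. Without them the ROBO2 span was 542 kb, and ROBO1 was 0.587, 0.677 and 1.38 times ROBO2 per kb, below it in replicates 1 and 2 and above it in replicate 3. On that span ROBO2 had 1.52, 0.442 and 1.13 reads per kb per 1000000 listed reads. SLIT3 stayed above ROBO2 in each replicate, but by smaller folds than those given above. The shorter span was chosen after seeing the data. By share per kb, SLIT3 ranked 984 of 7094 gene IDs with at least 5 loci and ROBO1 4566. ROBO2 ranked 5910 on its full listed span, a rank that depends on the same 2 loci.

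All listed peaks inside the 3 spans carried the name of the gene itself. No peak of another gene ID lay inside SLIT3, ROBO1 or ROBO2 on either strand, as in 23 of 45 gene IDs with a span of at least 500 kb and at least as many reads as ROBO2. ROBO2 and ROBO1 are neighbours on chromosome 3 that are transcribed toward each other. The 1004 kb between their listed spans held 0 peaks on either strand.

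In SLIT3 the reads crowded into the part nearest the 3' end, but the crowding peaked well short of that end. With the listed span cut into 10 equal parts, the last 3 parts held 92.6%, 86.0% and 67.2% of the SLIT3 reads in replicates 1, 2 and 3. The exact 95% intervals ran from 91.6 to 93.6%, from 81.8 to 89.5% and from 64.2 to 70.1%, so replicate 3 had the lowest share. Part 9 from the 5' end was the fullest in every replicate, with 40.9%, 60.8% and 29.9% of the reads. The median read lay 114, 107 and 129 kb from the listed 3' end in replicates 1, 2 and 3. The last 5 kb of the span held 95, 19 and 32 reads, or 3.51%, 5.56% and 3.21% of the reads in 0.788% of the span.

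The receptors also had fewer reads in the first parts of the listed span, which for ROBO2 depends on how the span is drawn. The bulk of their reads started farther from the 3' end. In ROBO1, parts 7 to 10 held 96.0%, 81.6% and 62.4% of the reads in replicates 1, 2 and 3, and part 8 alone held 60.6%, 57.9% and 30.8%. In ROBO2, parts 6 to 10 held 98.5%, 100% and 100%. Part 7 was its fullest in replicates 1 and 3, with 50.5% and 49.4% of the reads, while the 26 reads of replicate 2 lay mostly in parts 8 and 9. A stretch of 455 kb in ROBO2, chr3:76644872-77099853, had no listed peak in any replicate, and only 2 loci with 9 reads, all of replicate 1, lay on its 5' side. The longest such stretch was 89.8 kb in ROBO1 and 43.7 kb in SLIT3. The 2 ROBO2 loci set the 5' end of its span, so its empty first parts rest on them. Without them the span was 542 kb. The median ROBO2 read lay 414, 345 and 410 kb from the 3' end in replicates 1, 2 and 3, nearer the 5' end of that shorter span. Both Robo genes are known to have alternative promoters deep inside the longest gene model, and no annotation of hg19 was used here to place them. The last 5 kb held 34, 0 and 3 reads of ROBO1 and 14, 0 and 0 reads of ROBO2, so reads at the very end were found mainly in replicate 1.

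**Figure D2:**
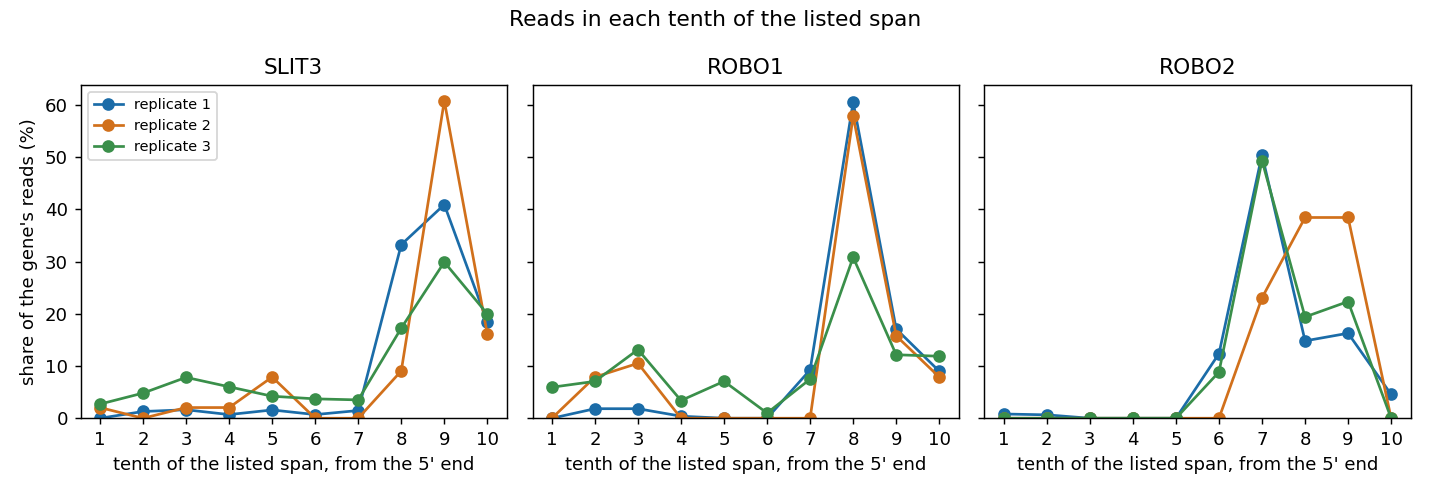
Share of each gene's reads (vertical axis, %) in 10 equal parts of its listed span, numbered from the 5' end (horizontal axis), for SLIT3, ROBO1 and ROBO2, with a line per replicate. SLIT3 is fullest in part 9 in every replicate and ROBO1 in part 8, while the first parts of SLIT3 and ROBO1 are fuller in replicate 3 than in replicate 1.

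Set against their own 5' ends, all 3 genes had more reads at the 3' end when replicates were summed. SLIT3 had 499, 55 and 199 reads in the last 10% of the span against 0, 7 and 27 in the first 10%, in replicates 1, 2 and 3. ROBO1 had 69, 3 and 84 reads in the last 10% against 0, 0 and 42 in the first. These 42 reads lay in 10 loci 5' of its longest empty stretch, all of replicate 3. Replicate 3 alone thus set the 5' end of the ROBO1 span, and the zeros of replicates 1 and 2 depend on how it was drawn. ROBO2 had 28 against 5 reads in replicate 1 and none at either end in the other 2. The log2 ratios of the summed reads were 4.45, 1.88 and 2.37 for SLIT3, ROBO1 and ROBO2, against a median of 0.18 over 6381 gene IDs. All 3 were called at the 3' end by an exact binomial test with Benjamini-Hochberg adjustment over all gene IDs, as were 18.1% of all gene IDs tested, while 14.1% were called at the 5' end. The same contrast picked SLIT3, so nothing is read from this count. Without each replicate in turn, the SLIT3 ratio was 2.88, 4.67 and 6.19, lowest without replicate 1 and highest without replicate 3, and from the outermost loci alone it was 2.21. The ROBO1 ratio was 1.04, 1.85 and 1.29 without replicates 1, 2 and 3, and 0.24 from the outermost loci. The ROBO2 ratio rested on replicate 1, the only one with reads at either end, and on a 5' end set by its far 5' loci. Without replicate 1, on a shorter span redrawn from the peaks of replicates 2 and 3, the ratio was -1.18. From the outermost loci of all replicates it was -0.65.

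Replicate 3 differed from replicate 1 in the 5' part of SLIT3 and ROBO1, both on the minus strand. In the first 50% of the span, SLIT3 had 25.6% of its reads in replicate 3 (exact 95% interval 22.9 to 28.4%), against 5.20% in replicate 1 (4.40 to 6.11%). ROBO1 had 36.6% in replicate 3 (33.1 to 40.3%), against 4.05% in replicate 1 (2.77 to 5.70%). The 5' end of the ROBO1 span was set by replicate 3 alone. ROBO2, on the plus strand, had 0% of 237 reads in replicate 3, against 1.47% of 614 in replicate 1. The first 50% of its span held only the 2 far 5' loci of replicate 1. Its values therefore follow from how the span was drawn and cannot show a shift. Replicate 2 had 14.0%, 18.4% and 0% for SLIT3, ROBO1 and ROBO2, the ROBO1 value from 38 reads. The shift of replicate 3 was 20.4 percentage points in SLIT3 and 32.6 in ROBO1. Among 31 minus-strand gene IDs with a span of at least 500 kb and at least 100 reads in both replicates, the median shift was -4.73 points, and 12 were above 0. These 31 include SLIT3 and ROBO1. Of them, 27 had a smaller shift than SLIT3, and the other 30 had a smaller one than ROBO1, the largest of the set. The 33 such plus-strand gene IDs, ROBO2 among them, had a median of -7.49 points. The value of ROBO2, -1.47, cannot be set against that median, because of its span. Comparisons of 2 libraries have no replicate check, and the intervals cover counting error only.

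**Figure D3:**
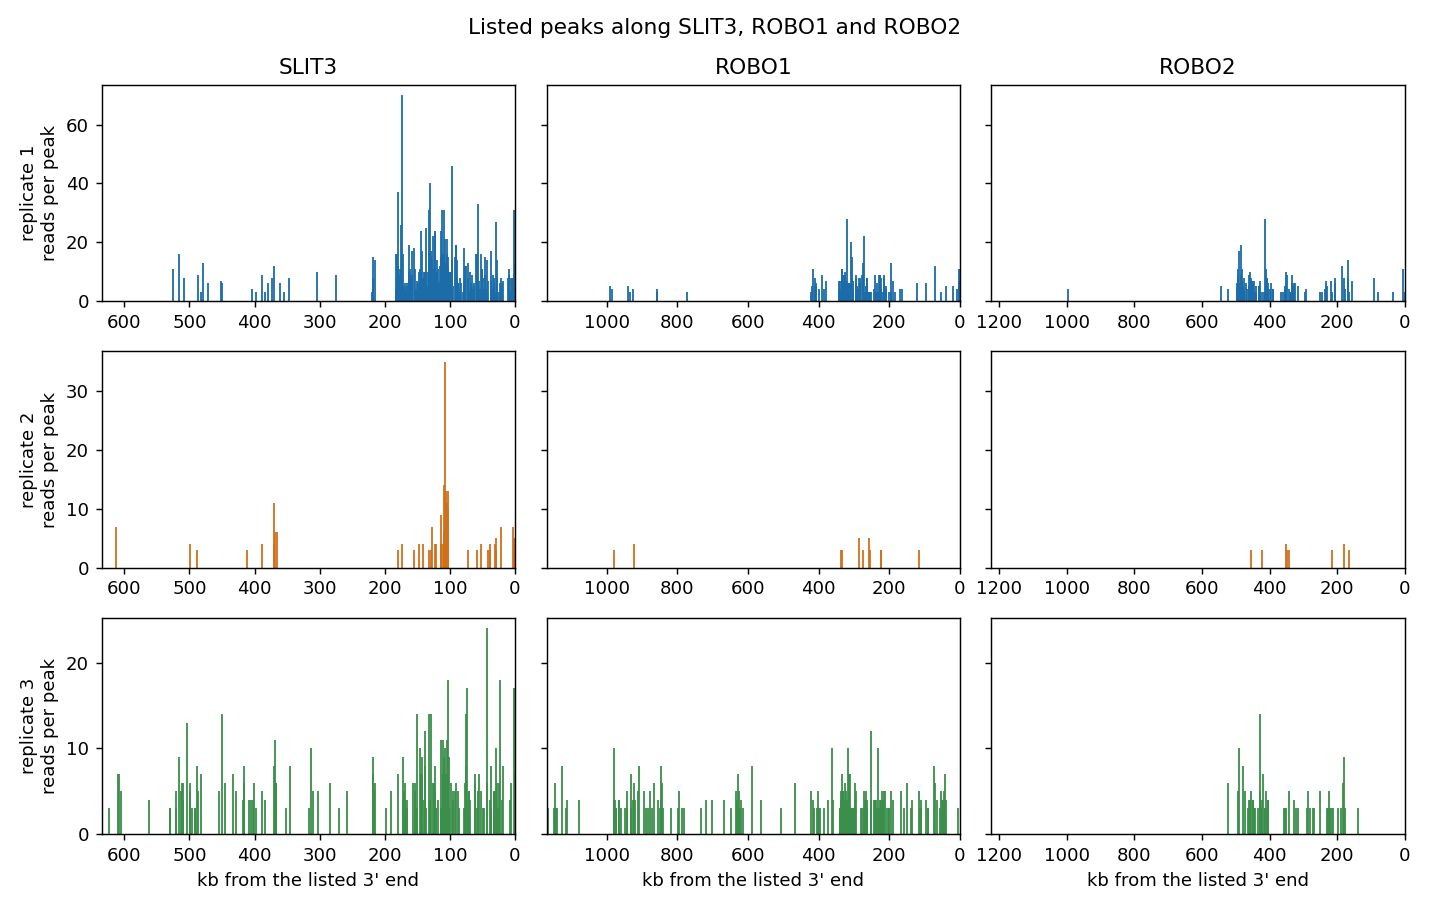
Reads per listed peak (vertical axis, scale shared within a row) against distance from the listed 3' end in kb (horizontal axis, 5' end at the left) for SLIT3, ROBO1 and ROBO2 in replicates 1, 2 and 3. Most peaks of replicate 1 lie within 200 kb of the end in SLIT3 and within 500 kb in the Robo genes. Replicate 3 adds peaks over the 5' part of SLIT3 and ROBO1. In ROBO2 only 2 loci of replicate 1 lie 5' of its longest empty stretch.

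A short stretch of SLIT3 was dense in all 3 libraries. The 10 kb window with the highest mean share, chr5:168190895-168200425, lay 101 to 111 kb from the listed 3' end. It held 395 reads in 47 peaks in replicate 1, 184 reads in 19 peaks in replicate 2 and 126 reads in 16 peaks in replicate 3. These were 14.6%, 53.8% and 12.7% of the SLIT3 reads, in 1.58% of the span. Replicate 2 stood highest, and the stretch was also the densest, or overlapped the densest, in each replicate taken alone: the densest 10 kb began 104, 102 and 101 kb from the 3' end in replicates 1, 2 and 3. The mean of 27.0% was higher than in 93.3% of the 45 long gene IDs, whose median was 14.4%. Over all 164 gene IDs with at least as many reads as ROBO2, of any span, the median was 24.3%. Of these, 57.9% lay below SLIT3, so its mean stood out among long gene IDs only. Without replicate 2 the SLIT3 mean was 14.1%, still higher than in 91.1% of the long gene IDs, with a median of 9.61%.

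In ROBO1 the densest stretches of replicates 1 and 3 nearly coincided, and in ROBO2 each replicate had its own. In ROBO1 the densest 10 kb lay 324 and 323 kb from the 3' end in replicates 1 and 3, with 104 and 52 reads, and in replicate 2 it lay 254 kb away, with 8 reads. In ROBO2 it lay 484, 342 and 422 kb from the 3' end in replicates 1, 2 and 3, with 93, 10 and 26 reads. The highest mean share of a 10 kb window was 11.5% in ROBO1 and 15.2% in ROBO2, on either side of the long gene ID median of 14.4%. Both lay below the median of 24.3% over all 164 gene IDs, of which 10.4% were below ROBO1 and 23.8% below ROBO2. The densest window of ROBO2 in replicate 2 held 38.5% of its reads there with only 10 reads. Without replicate 2 the means were 10.1% and 11.4%, both above the long gene ID median of 9.61%. With 38 reads in ROBO1 and 26 in ROBO2, replicate 2 could not show where a dense stretch lies.

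**Figure D4:**
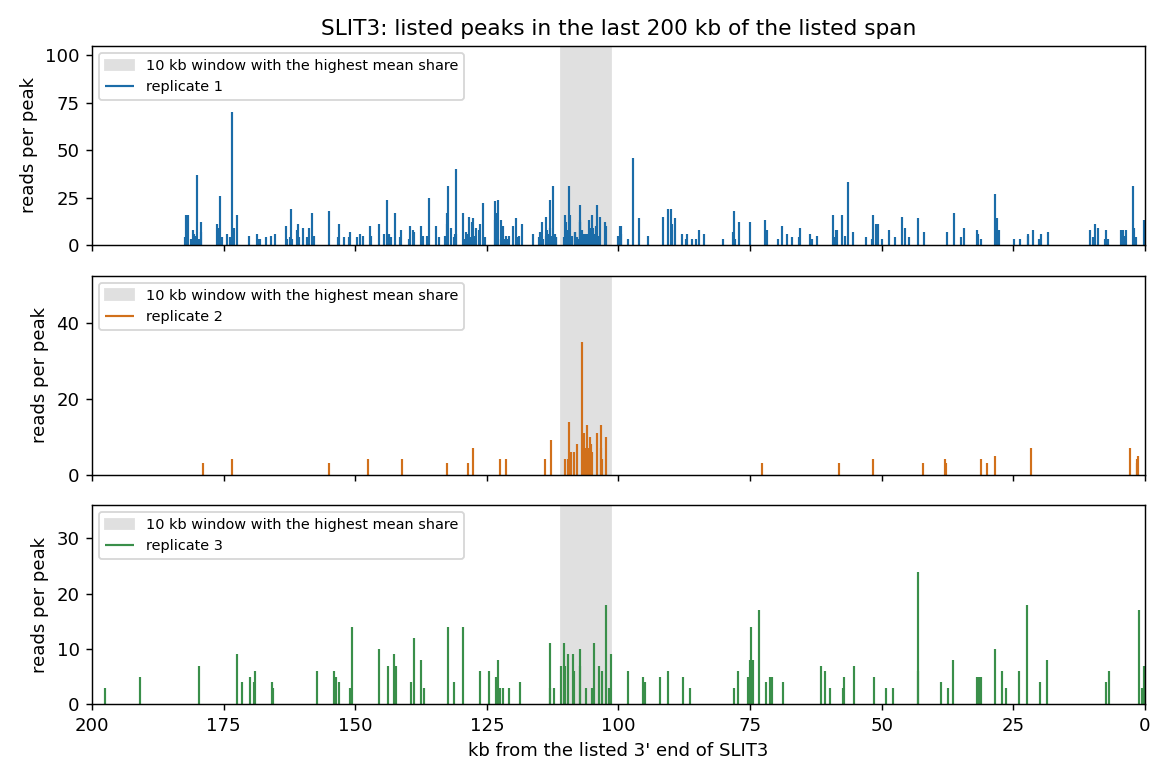
Reads per listed peak (vertical axis, own scale per panel) in the last 200 kb of the SLIT3 listed span against distance from the listed 3' end in kb (horizontal axis, 3' end at the right), with a panel per replicate. The grey band is the 10 kb window with the highest mean share, which holds 395, 184 and 126 reads in replicates 1, 2 and 3.

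A locus joins overlapping peaks of all replicates on 1 strand. The 3 SLIT3 loci with the highest mean share lay in that stretch, by a mean in which the small replicate 2 weighs as much as the others. At chr5:168196228-168196590, 363 nt long, there were 22, 35 and 0 reads in replicates 1, 2 and 3, so the first locus by mean share was missing from replicate 3. At chr5:168198869-168199131 there were 37, 18 and 9 reads, and at chr5:168194402-168194693 there were 25, 14 and 3. Of the 9 SLIT3 loci found in all 3 replicates, the others in or beside the stretch were chr5:168202291-168202614, with 38, 9 and 14 reads, chr5:168191672-168191932, with 10, 10 and 18, chr5:168195662-168195783, with 6, 7 and 3, and chr5:168199466-168199642, with 16, 4 and 7. The remaining 3 lay nearer the 3' end, at 28.4, 31.0 and 51.4 kb from it. The first of these, chr5:168117892-168118085, had the smallest fold between replicates of the 9, with shares of the listed reads of 0.00367%, 0.00461% and 0.00258%. SLIT3 signal was spread over many sites: the strongest locus by summed reads held 1.83% of the SLIT3 reads, against a median of 2.31% over the 45 long gene IDs. That locus, chr5:168262843-168263003, singled out after its values were seen, had 70, 4 and 0 reads and lay outside the dense stretch, 173 kb from the listed 3' end.

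The Robo loci were weaker. In ROBO1, the only locus in all 3 replicates was chr3:78982375-78982497, with 4, 3 and 4 reads. The ROBO1 locus with the highest mean share in 2 or more replicates, chr3:78931766-78931907, had 8, 5 and 0 reads. ROBO2 had no locus in all 3 replicates. Its leading loci were chr3:77150726-77150896, with 17, 0 and 10 reads, and chr3:77228325-77228470, with 28, 0 and 3 reads.

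SLIT3 positions were found again in another replicate more often than those of the Robo genes. Overlap grows with how densely peaks and reads cover a gene, and SLIT3 was chosen by its reads, so sharing is described here and is not independent of that choice. SLIT3 clusters had a median of 7 reads in replicate 1, against 5 in ROBO1 and in ROBO2, and no overlap to be had by density alone was computed. Clusters are overlapping peaks merged within a replicate. In SLIT3, 26.2% of 301 clusters of replicate 1, 55.6% of 54 of replicate 2 and 33.3% of 159 of replicate 3 overlapped a cluster of another replicate. In ROBO1 these were 17.5% of 120, 36.4% of 11 and 12.7% of 165, and in ROBO2 6.86% of 102, 12.5% of 8 and 10.5% of 57. Over all clusters of the members together, 20.5%, 47.9% and 20.9% were shared, against 15.3%, 35.3% and 16.8% of the clusters of all other gene IDs. The difference was 5.18, 12.6 and 4.11 percentage points, a mean of 7.30 ± 4.62 (SD, n = 3). All 3 replicates had the same sign, but without replicate 1 the mean difference was -0.33 points, so it rested on overlaps with that replicate.

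**Figure D5:**
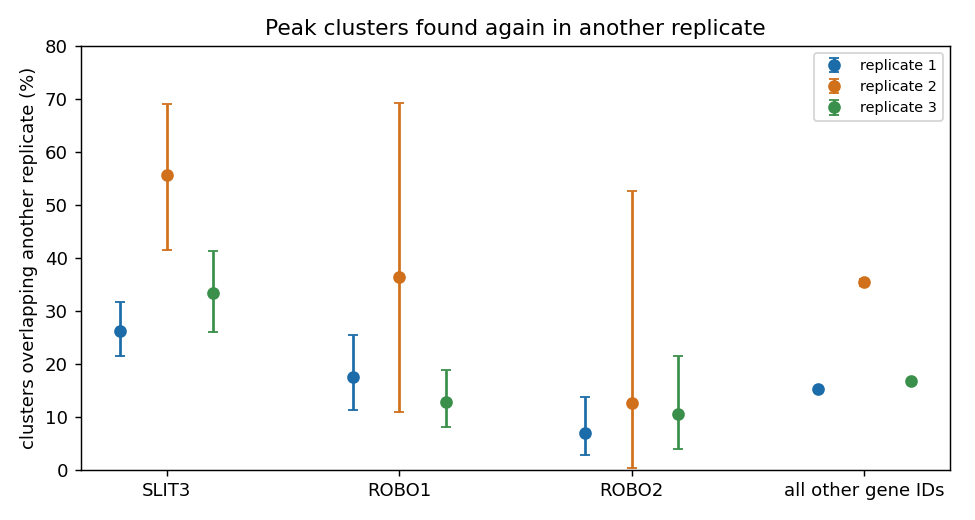
Share of peak clusters that overlap a cluster of another replicate (vertical axis, %) for SLIT3, ROBO1, ROBO2 and all other gene IDs, with a point per replicate and exact 95% intervals for counting error. The SLIT3 points, 26.2 to 55.6%, lie above those of all other gene IDs in each replicate, and the ROBO2 points, 6.86 to 12.5%, lie below them.

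The member clusters were close in size to the rest. Their median width was 85, 76 and 69 nt in replicates 1, 2 and 3, against 79, 72 and 69 nt for all other gene IDs, and their median reads were 6, 4 and 4, against 5, 4 and 4. Among clusters of 10 to 19 reads, 37.2% of 94 member clusters of replicate 1 were shared (exact 95% interval 27.5 to 47.8%), against 26.3% of the others. In replicate 3 these were 61.5% of 26 (40.6 to 79.8%), against 54.5%, which lies inside the interval. At 5 to 9 reads, 20.7% of 232 were shared in replicate 1 (15.7 to 26.5%), against 15.4% of the others. In replicate 3 it was 21.9% of 146 (15.5 to 29.5%), against 22.0%. At 3 to 4 reads, 8.62% were shared in replicate 1 (4.91 to 13.8%), against 8.96%. In replicate 3 it was 14.8% of 209 (10.31 to 20.4%), against 10.26%. At 20 reads or more, 39.1% were shared in replicate 1 (19.7 to 61.5%), against 40.7%. In replicate 2 the value of the others lay inside the interval in every such group. The groups that stood apart thus differed between replicates. Counted as loci over all replicates, 9 of 417 SLIT3 loci (2.16%) were in all 3, against 1530 of 172167 of all loci (0.889%). For ROBO1 it was 1 of 272 and for ROBO2 0 of 160.

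The peaks themselves had the common form. The stretch of at most 4 nt that the authors mark inside each peak lay at a median of 50.6%, 51.2% and 50.7% of the peak width in the member peaks, which was 0.633, 1.19 and 0.231 points farther toward the 3' side than in all other peaks. Peak names are numbered along each gene ID, and many numbers are skipped. Of the numbers up to the highest, 62.1%, 36.7% and 43.6% had a listed peak in SLIT3, 43.5%, 18.97% and 61.6% in ROBO1, and 42.1%, 21.1% and 46.0% in ROBO2. ROBO1 was the fullest in replicate 3, and SLIT3 in replicate 1.

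The layout of reads along each gene was partly repeated between replicates. The overlap of 2 profiles over the 10 parts is 1 when they are equal and 0 when they share no part. For SLIT3 it was 0.700, 0.730 and 0.654 between replicates 1 and 2, 1 and 3, and 2 and 3, against medians of 0.483, 0.542 and 0.504 over gene IDs with at least 20 reads in both. For ROBO1 it was 0.852, 0.635 and 0.685, and for ROBO2 0.542, 0.893 and 0.648. The value for ROBO2 between replicates 1 and 3 was higher than in 99.5% of 3572 gene IDs. Its 10 parts are cut from a span lengthened by 2 loci with 9 reads, which leaves nearly all its reads in parts 6 to 10. The overlap was not computed on the shorter span. By clusters, ROBO2 positions were the least shared of the 3 genes. The lowest value of ROBO1, between replicates 1 and 3, goes with the larger 5' part in replicate 3.

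Between genes, the profiles of SLIT3 and ROBO1 were more alike than either was to ROBO2. With reads summed over the 3 replicates, the overlap was 0.653 for SLIT3 and ROBO1, rank 140 of 2767 gene IDs by likeness to SLIT3, 0.428 for SLIT3 and ROBO2, and 0.444 for ROBO1 and ROBO2. The median overlap with SLIT3 was 0.383. The gene IDs most like SLIT3 were ENSG00000120137 (chr5:167975423-168003758), with an overlap of 0.876, and ENSG00000197183 (chr20:31032688-31162703), with 0.867. Both lie on the minus strand but have much shorter listed spans, 28.3 and 130 kb. The nearer edge of ENSG00000120137, its listed 5' end, lies 85.7 kb from the listed 3' end of SLIT3. The likeness is a description over 10 parts and 3 replicates, and for ROBO2 it depends on its lengthened span.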

How the data were processed

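The deposited data are 3 peak lists, 1 per replicate and not pooled, in hg19 per the submitters' processing notes. The same notes name STAR, bedtools, SAMtools and FastQC, with no version. The peak caller and annotation are not given in the sources used here. With every peak the authors deposited a p-value, which served here only as a filter. The last number of each deposited peak name was taken as a read count, an assumption no source spells out. Over the member peaks this number and the p-value had a Spearman rho of -0.993, -0.967 and -0.972 in replicates 1, 2 and 3.

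The 6 members and all lists were chosen with earlier results of these data known. Their names come from that choice; for the 4 with peaks, chromosome and strand match RefSeq. None of the 13356 gene IDs could be matched to a symbol, so the 60 further guidance genes and the cell markers were not analysed here. No hg19 sequence was used here.

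Peaks on 1 strand overlapping by at least 1 nt were joined: within 1 replicate as a cluster, over all 3 as a locus. A peak was placed by its midpoint. End reads were tested for gene IDs with at least 5 loci and 10 end reads; 0.5 was added to each end for log2 ratios. A call needed an adjusted p below 0.05 and 1 direction in every replicate with reads there. The sign-flip test of cluster sharing is not reported, because sharing depends on the reads that chose SLIT3. The end test was tested on simulated reads drawn independently, as the test itself assumes. That cannot show how it fares on real reads, which come grouped in peaks. Named loci were the 2 per gene (3 for SLIT3) of highest mean share in at least 2 replicates, and up to 10 found in all 3. Intervals are exact Clopper-Pearson at 95% and cover counting error only, since the reads need not be independent molecules. Python 3.11.15, numpy 2.4.6, pandas 2.3.3, scipy 1.17.1 and matplotlib 3.10.9 were used. Sequencing depth is unknown, and the listed totals limit replicate 2 most.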

Additional observations from a re-analysis of the deposited data

How the results depend on the processing

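Of 97 alternative values, 75 stayed within the spread of the replicates or within 1.5 times for counts, 18 moved and 4 changed sign. No paired analysis was possible because the labels give 1 group. With reads thinned to the lowest total the SLIT3 share was 0.397%. With each replicate left out in turn and the spans redrawn from the remaining peaks, the ROBO2 end ratio ranged from -1.18 to 2.37 and the sharing difference from -0.33 to 10.1 points. The ROBO2 ratio was 4.33 with the outer 20% of the span and -0.65 with the outermost locus. Over all gene IDs, 3' and 5' calls came to 149 and 60 with the outermost locus, 218 and 225 by peaks, and 734 and 588 with peaks of a p up to the median; without each replicate they ranged from 617 to 1170 and from 540 to 1050. ROBO1 over ROBO2 per kb was -0.29 (mean log2) with the ROBO2 span taken without the 2 loci beyond its longest empty stretch, an alternative chosen after seeing the data. The 50 kb window gave 26.2% for ROBO1. Mean profile overlaps with 20 parts were 0.614 for SLIT3 and 0.587 for ROBO1, and with peaks of a p up to the median 0.619 and 0.524; for ROBO2 that filter left no value. The shift in the first part of the span, whose alternatives were chosen after seeing the data, was 36.7 points for ROBO1 with peaks of a p up to the median, and 23.4 for SLIT3 and -4.98 for ROBO2 with the first 60%. The cause of these changes was not tested. Replicate 2 held 38 ROBO1 and 26 ROBO2 reads, which limits every value of theirs in it.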
